A study of Mus musculus with 2 samples.

Results

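Lymphatic endothelial cells line the vessels that drain fluid, lipid and leukocytes from the lung to its lymph nodes. The homeobox factor Prox1 sets and keeps their identity, Flt4 (VEGFR3) is their receptor for the growth factor VEGF-C, and they release the chemokine Ccl21a, which guides dendritic cells and T cells carrying its receptor into the vessel. Initial (capillary) lymphatics take up fluid through loose junctions and carry the hyaluronan receptor Lyve1, while collecting vessels have valves whose cells depend on the factor Foxc2. In the 2 libraries described here, lung cells were chosen as lymphatic endothelial by their UMIs (unique molecule counts) of 5 genes: Mmrn1, a matrix glycoprotein also stored in platelets, Prox1, Ccl21a, Reln, a secreted glycoprotein, and Flt4. A barcode with at least 200 genes and at most 15% mitochondrial UMIs was taken when at least 2 of the 5 were detected, with Mmrn1 or Prox1 among them. It also had to have at most 1 UMI each of the leukocyte gene Ptprc and the fibroblast gene Col1a1, and none of the platelet genes Itga2b and Gp9. This gave 86 cells of 26650 kept barcodes, 51 of 14285 in the IgG library and 35 of 12365 in the S100A4-11 library.

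The lungs came from BALB/c mice with 4T1 cells, a mouse mammary carcinoma line, placed in the mammary fat pad, and were taken on day 14. One group had received IgG and the other the S100A4-11 antibody, and all mice carried the tumour, so no tumour-free lung is in the comparison. The labels give the tissue as lung, while the protocol text speaks of tumour tissue. Each treatment had 1 library, and the labels do not say how many mice it holds. Differences between the libraries therefore have no replicate check, carry no p-value, and are given with exact 95% intervals that cover counting error only. Members of the IgG library held 461833 UMIs and those of the S100A4-11 library 197444, with a median of 5749 UMIs per cell (527 to 26231).

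The cells chosen by the rule were of 2 kinds, and 1 kind went against the label. All 5 rule genes were detected in 43 cells, 4 in 11 cells, 3 in 2 cells and exactly 2 in 30 cells. The 56 cells with 3 or more markers (31 IgG, 25 S100A4-11) had between 39.3 and 260 UMIs of the rule genes per 10000 UMIs, with a median of 130. Ccl21a was found in 55 of them, Mmrn1 in 56, Flt4 in 54, Reln in 53 and Prox1 in 47. Genes that played no part in the choice went the same way. Of the 56 cells, 52 had a UMI of Thy1, a surface glycoprotein, 49 of Fxyd6, a regulator of the sodium pump, 50 of Nrp2, a co-receptor for VEGF-C, 41 of Sema3d, 41 of Tbx1 and 39 of Pdpn (podoplanin, a standard lymphatic marker).

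The 30 cells with exactly 2 markers (20 IgG, 10 S100A4-11) had a median of 2.70 rule gene UMIs per 10000, and Ccl21a was detected in none of them. The split by number of rule genes sets both of these in part. In 28 of the 30 cells Mmrn1 or Prox1 was present as a single UMI, and in 28 the second marker was Flt4, which was also found in 30.5% of general capillary and 22.3% of aerocyte cells, both blood endothelial classes. Pdpn, Fxyd6, Thy1, Sema3d and Tbx1 were found in 0 of the 30 cells, but Nrp2 was found in 8 of them. Lyve1 did not separate the sets, with a UMI in 18 of the 30 and 33 of the 56 cells. Gpihbp1, which carries lipoprotein lipase across capillary cells, was found in 25 of the 30 cells and the capillary carbonic anhydrase Car4 in 21, against 30 and 1 of the 56 cells. Mmrn1 and Prox1 aside, 10 of the 30 met the terms for general capillary cells and 2 those for aerocytes. Of the 56 cells, 18 and 3 did so. The 14 blood capillary genes summed to a median of 107 UMIs per 10000 in the 2-marker cells and 18.0 in the others. These 30 cells were deep (median 8196.5 UMIs against 4248) and are called 2-marker cells below. One of them, an S100A4-11 cell of 802 UMIs with 1 Prox1 and 3 Flt4 UMIs, stood with the 56 cells at 49.9 rule gene UMIs per 10000 and had no UMI of the capillary genes. The 2-marker cells made up 39.2% of IgG members and 28.6% of S100A4-11 members, but 58.0% and 29.7% of the members' UMIs, so the counts and lists below are given with and without them, and single genes where both values are printed.

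**Figure D1:**
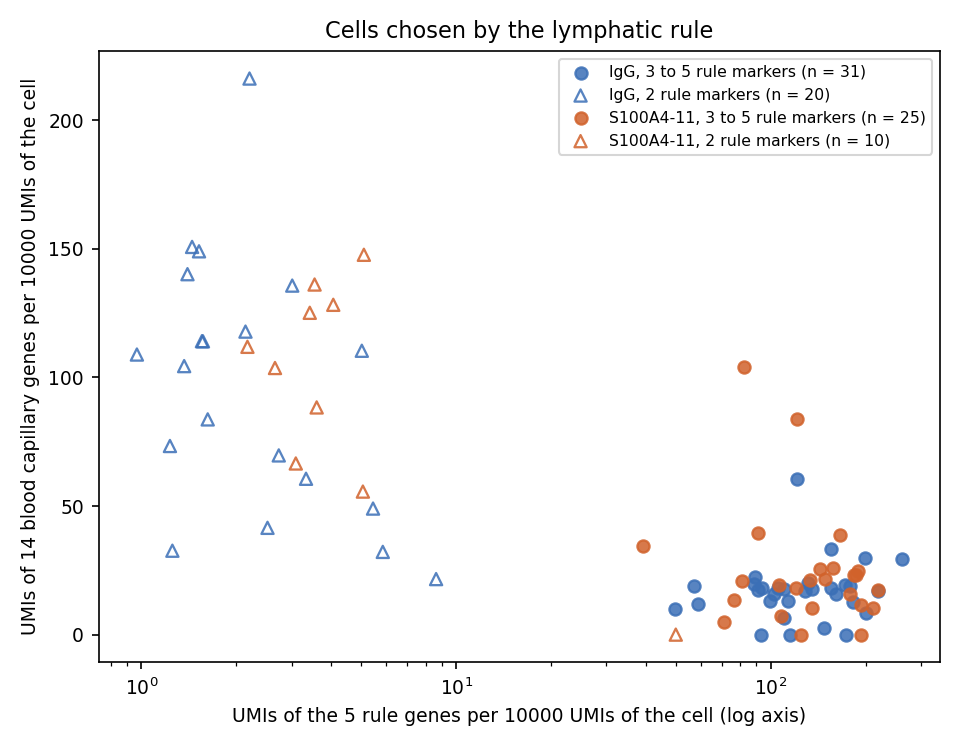
Each point is a cell chosen by the rule, with UMIs of the 5 rule genes per 10000 UMIs of the cell on a log x axis and UMIs of 14 blood capillary genes per 10000 on the y axis. Filled circles are the 56 cells with 3 to 5 markers, open triangles the 30 with exactly 2, coloured by library. All but 1 of the triangles lie to the left of every circle, and 1 triangle lies among the circles, at 49.9 on the x axis. The x axis uses the genes whose number defines circles and triangles, so the split sets this separation in part.

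At the edge of the rule, 49 kept barcodes that met its other terms had Mmrn1 or Prox1 and no second marker, and 14 had 2 or more markers without Mmrn1 or Prox1. A further 12 barcodes with 3 or more markers, of 5662 to 29320 UMIs, were left out by the leukocyte, platelet or fibroblast terms. Inside the edge, 3 members had 1 UMI of Ptprc and 2 had 1 UMI of Col1a1. A doublet caller marked 2 members, both 2-marker cells of the IgG library. Of 266 barcodes present in both libraries, 1 was a member.

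Upstream sequence of 3 of the genes that define the class is shown for context. Their joint presence in the 56 cells is set in part by the choice of cells by these genes. The 250 bases before the start are from the RefSeq promoter table for GRCm38.p6, written 5′ to 3′, and capitals mark ACAAT or its reverse complement ATTGT, the core bound by SOX factors such as Sox18, an activator of Prox1.

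Mmrn1 (chr6:60944067-60944316, plus strand): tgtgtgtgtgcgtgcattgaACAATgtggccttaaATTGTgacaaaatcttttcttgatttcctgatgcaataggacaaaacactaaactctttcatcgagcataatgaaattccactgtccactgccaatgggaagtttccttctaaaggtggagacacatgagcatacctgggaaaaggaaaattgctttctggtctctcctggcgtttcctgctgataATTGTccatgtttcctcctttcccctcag

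Prox1 (chr1:190170828-190171077, minus strand): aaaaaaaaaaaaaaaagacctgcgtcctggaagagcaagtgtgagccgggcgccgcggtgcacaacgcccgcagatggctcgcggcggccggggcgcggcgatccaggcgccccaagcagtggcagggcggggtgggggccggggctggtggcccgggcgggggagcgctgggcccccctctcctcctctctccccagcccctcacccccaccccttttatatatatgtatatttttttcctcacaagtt

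Ccl21a (chr4:42773992-42774241, minus strand): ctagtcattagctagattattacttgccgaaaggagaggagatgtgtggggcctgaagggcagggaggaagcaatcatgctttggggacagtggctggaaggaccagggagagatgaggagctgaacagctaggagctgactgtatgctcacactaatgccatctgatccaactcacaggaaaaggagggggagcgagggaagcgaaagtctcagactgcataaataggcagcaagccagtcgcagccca

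The Mmrn1 window held 3 matches, and the Prox1 and Ccl21a windows shown held 0. Among 11 windows found for 9 of 10 lymphatic genes searched (Thy1 had no entry), 2 held a match, and 27.7% of all 32851 windows of this length did. A match is a string of letters and says nothing of binding. In the GENCODE M21 annotation of GRCm38, Prox1 lies at 190118035 to 190170714 on the minus strand of chromosome 1 and Ccl21a at 42772860 to 42773993 on the minus strand of chromosome 4. Mmrn1 lies at 60924976 to 60989378 on the plus strand of chromosome 6, so the RefSeq start used here falls inside that gene model.

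The rule genes set the class apart by construction, and their levels are given as a description. Levels are in CPM, the UMIs of a gene per 1000000 UMIs of the class, with IgG given before S100A4-11. In the 56 cells Ccl21a stood at 7930 and 6740 CPM. It was at 0 to 0.259 CPM in both libraries of general capillary cells. Mmrn1 stood at 2700 and 2391 CPM, Prox1 at 572 and 540 CPM and Flt4 at 1273 and 1087 CPM, each with a fold of S100A4-11 over IgG whose interval includes 1. The fold of Ccl21a was 0.85 (0.783 to 0.922). Reln stood at 1510 and 936 CPM, a fold of S100A4-11 over IgG of 0.620 (0.50 to 0.765). One IgG cell held 84 Reln UMIs, 19.9% of those in the 56 cells, and the interval does not cover this. Over all 86 members the folds ran the other way for Mmrn1 (1.48, 1.29 to 1.70), Prox1 (1.52, 1.13 to 2.02) and Ccl21a (1.42, 1.31 to 1.54). The larger weight of 2-marker cells in the IgG sum moves with that turn. Ccl21a has near-identical copies in the mouse genome, among which reads can be split.

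Lymphatic cells were a small share of each library, and the share did not differ beyond counting error. Members were 0.357% (0.266 to 0.469) of IgG barcodes and 0.283% (0.197 to 0.393) of S100A4-11 barcodes, a fold of 0.793 (0.50 to 1.24). Cells with 3 or more markers made up 0.217% (0.147 to 0.308) of IgG and 0.202% (0.131 to 0.298) of S100A4-11 barcodes, and the fold was 0.932 (0.527 to 1.63). Over lymphatic plus blood endothelial cells they were 0.747% and 0.788%, a fold of 1.06 (0.598 to 1.85). A difference within these intervals was not detectable at this depth.

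Members were then compared with 3 classes of blood endothelial cells of the same libraries: general capillary (3562 cells), aerocyte capillary, the thin cells of gas exchange (629), and large vessel (138). UMIs were summed per class and library, and the 8 sums were fitted with edgeR's quasi-likelihood test with library as a term and Benjamini-Hochberg adjustment over all genes. Cells of 1 library share their source, so each class has 2 sums, 1 from each treatment. Over all 86 members, 551 of 9355 genes (5.89%) were higher and 252 (2.69%) lower than in blood endothelial cells at an adjusted p under 0.05. With the 56 cells alone, 895 of 9378 (9.54%) were higher and 890 (9.49%) lower, and 738 of the 803 genes called with all members were called again. Genes of the gates are not counted.

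The 20 genes with the highest fitted fold were nearly silent in blood endothelium, and all 20 were called again, in the same direction, with the 56 cells. With DESeq2 over all members 5 of them lost the call: Duox2, Nts, Comp, Ptx3 and Cldn11, with adjusted p between 0.157 and 0.252. Across them the 56 cells ranged from 43.2 to 1728 CPM in a library, and no blood sum was above 5.18 CPM. Because 3 of them (Duox2, a hydrogen peroxide producing oxidase, the neuropeptide gene Nts and the matrix gene Comp) were at 0 in every blood sum, their fitted folds depend on the prior count and are not printed. Fxyd6 stood at 1484 and 1728 CPM, against at most 2.22 CPM in a blood sum (edgeR adjusted p = 4.09e-10 over all members). Thy1 stood at 1489 and 1570 CPM, also against at most 2.22 CPM (p adjusted by edgeR = 4.09e-10). Both libraries were alike for these genes, and the 2-marker cells had 0 UMIs of either.

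The others in this group of 20 have mixed roles. Tbx1, a transcription factor needed for lymphatic growth, stood at 340 and 475 CPM, and Sema3d, a secreted guidance cue, at 402 and 425 CPM. Stab2, a scavenger receptor for hyaluronan, stood at 314 and 274 CPM in the 56 cells and 3.73 and 68.3 CPM in the 2-marker cells. Nts, at 92.8 and 122 CPM, was found in 12 cells, and Cldn11, a tight junction protein found in lymphatic valves, at 87.6 and 86.4 CPM in 9 cells. Duox2 was detected in 27 cells, Ptx3, a secreted pentraxin, in 17 and Comp in 14. Gpm6a, which is also a mesothelial marker, stood at 423 and 360 CPM and was found in 40 cells. Plce1, Adamtsl1, Apba2, Slc45a3, Slc16a12, Lrrn4cl, Wdr17 and Gm525 were also in this group.

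**Figure D2:**
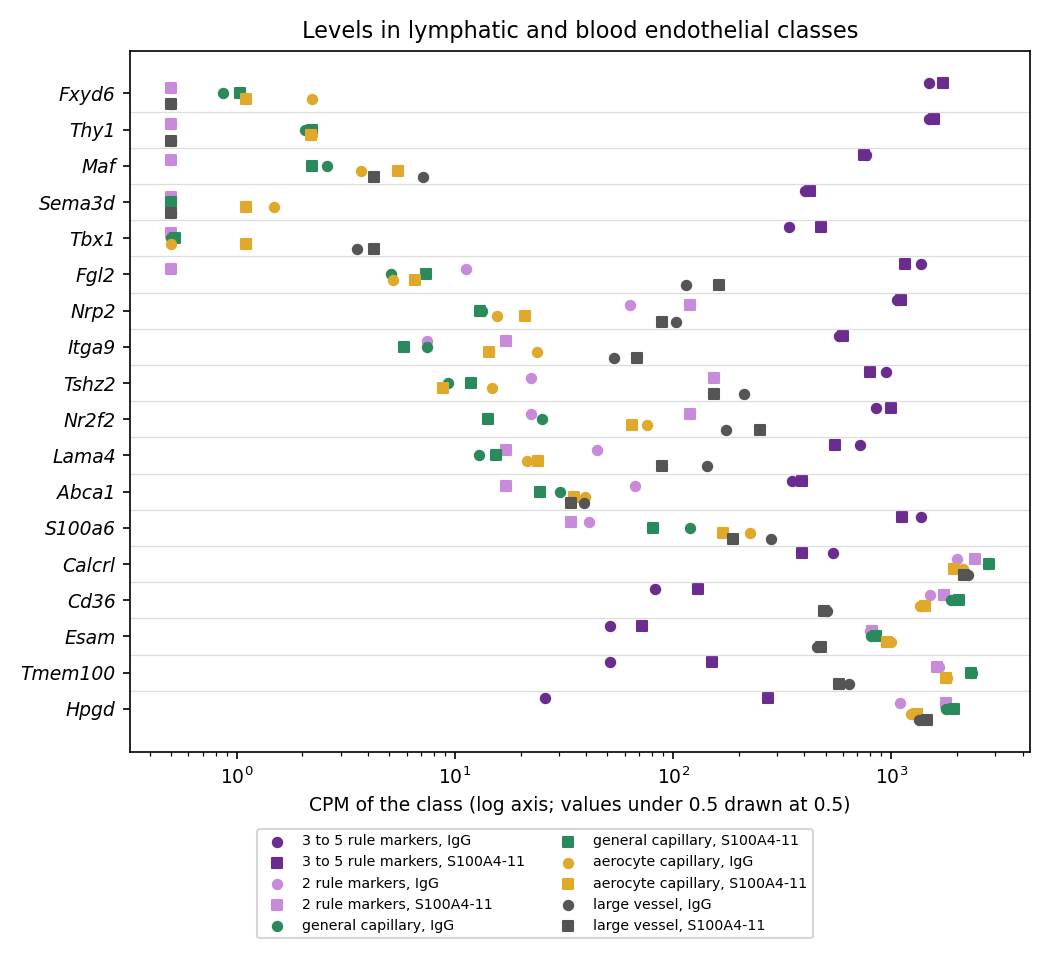
CPM of 18 genes on a log x axis in the 56 members with 3 to 5 markers (dark purple), the 30 with exactly 2 (light purple) and 3 blood endothelial classes, with circles for IgG and squares for S100A4-11; values under 0.5 CPM are drawn at 0.5. For Calcrl, Cd36, Esam and Tmem100 the light purple points lie with the capillary classes, far from the dark purple ones.

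Genes known from lymphatic identity, other than the rule genes, were mostly higher. Of 23 tested members of that list, 21 were higher and 0 lower over all members, with a median fitted log2 fold of 5.27 against 0.01 over all genes, and 21 higher and 1 lower with the 56 cells. All genes gave 5.89% higher and 2.69% lower over all members, and 9.54% and 9.49% with the 56 cells. Pdpn stood at 319 and 432 CPM against at most 3.56 CPM in a blood sum. Fgl2, a secreted fibrinogen-like protein, stood at 1371 and 1152 CPM against 114 and 162 CPM in large vessels, with a log2 fold over blood of 5.27 ± 0.13 (SE, edgeR adjusted p = 3.31e-10) and of 6.14 with the 56 cells. Timp3, an inhibitor of metalloproteases, stood at 2458 and 2391 CPM, a log2 fold of 1.74 ± 0.17 (SE, edgeR adjusted p = 2.94e-05) and of 2.38 with the 56 cells. Clu and Tspan18 were not called with all members, and Clu was lower with the 56 cells. Lyve1, a standard lymphatic marker, stood at 1649 and 576 CPM in the 56 cells and at 1707 and 1740 CPM in large vessels. Its log2 fold was 0.81 ± 0.14 over the mean of the blood classes and -0.94 ± 0.18 against large vessels (edgeR adjusted p = 0.00307 and 0.00567). It was found in 33 of the 56 cells. Without the 2-marker cells the adjusted p against large vessels was 0.134.

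Most transcription factors tied to lymphatic fate were higher. Of 16 tested, 9 were higher and 1 lower with all members, and 11 and 3 of 17 with the 56 cells. The shares of all genes were 5.89% and 2.69%, and 9.54% and 9.49%. Maf stood at 768 and 749 CPM against at most 7.13 CPM in a blood sum, and the 2-marker cells had 0 UMIs of it. Tshz2 stood at 948 and 799 CPM, with a log2 fold of 4.03 ± 0.19 (SE, edgeR adjusted p = 7.17e-08) and of 4.84 with the 56 cells. Nr2f2 (COUP-TFII), which works with Prox1 and also marks veins, stood at 855 and 994 CPM against 175 and 251 CPM in large vessels and 25.1 and 14.1 CPM in general capillary cells. Sox18, which acts upstream of Prox1, was shared with blood endothelium at 474 and 590 CPM (edgeR adjusted p = 0.438). Foxc2 stood at 51.5 and 79.2 CPM in 10 of 56 cells. Gata2 stood at 72.1 and 101 CPM, and was lower only once the 2-marker cells were left out (edgeR adjusted p = 0.136 with them and 0.000588 without).

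In VEGF-C and angiopoietin signalling the receptors Nrp2 and Kdr were higher than in blood endothelium, and Calcrl was lower. Over all members 5 of 16 tested genes were higher and 2 lower, and with the 56 cells 6 were higher and 7 lower. Among all genes these shares were 5.89% and 2.69%, and 9.54% and 9.49%. Nrp2 stood at 1062 and 1109 CPM against 103 and 89.4 CPM in large vessels and at most 20.8 CPM in the capillary classes, a log2 fold of 4.39 ± 0.17 (SE, edgeR adjusted p = 1.11e-08) and of 5.17 with the 56 cells. Itga9, the integrin chain needed for valves, stood at 577 and 598 CPM against at most 68.1 CPM in a blood sum. Kdr (VEGFR2) stood at 799 and 1030 CPM, above general capillary cells (336 and 388 CPM) and below aerocytes (1429 and 1714 CPM), and was higher than the mean of the blood classes (log2 fold 0.66 ± 0.15 with all members and 0.77 ± 0.15 with the 56 cells, edgeR adjusted p = 0.0139 and 0.0015). Calcrl, the receptor chain for adrenomedullin, stood at 541 and 389 CPM against 1944 to 2802 CPM over the 6 blood sums, a log2 fold of -2.40 ± 0.16 without the 2-marker cells and -1.02 ± 0.12 with them. Tek (TIE2), the angiopoietin receptor, stood at 186 and 144 CPM, and it was lower without the 2-marker cells (log2 fold -1.07 ± 0.18, edgeR adjusted p = 0.000475) but not with them (adjusted p = 0.806).

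Genes of collecting vessels and valves were in part higher. Of 17 tested, 9 were higher and 2 lower over all members, and 10 and 3 with the 56 cells. Shares over all genes were 5.89% and 2.69%, and 9.54% and 9.49%. Beside Foxc2, Cldn11 and Itga9, the mechanosensitive channel Piezo1 stood at 196 and 180 CPM, with a log2 fold of 0.57 ± 0.16 (SE, edgeR adjusted p = 0.0478). Its call was lost with called doublets removed (edgeR adjusted p = 0.0576), with DESeq2 (adjusted p = 0.0688), with no filter (0.155) and with no library term (0.0512). Efnb2 and Acvrl1, an arterial ligand and a receptor for BMP9, were lower, at 155 and 194 CPM and at 165 and 166 CPM. Acvrl1 stood at 711 to 1378 CPM over the blood sums.

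Of 22 tested genes that steer leukocyte traffic, 2 were higher and 3 lower with all members and 4 and 8 with the 56 cells, against 5.89% and 2.69%, and 9.54% and 9.49%, of all genes. The 2 higher are near that share. Il7, the T cell survival cytokine that lymphatic endothelium is known to make, stood at 149 and 72.0 CPM in 20 of the 56 cells against at most 3.29 CPM in a blood sum (edgeR adjusted p = 0.000218). Cxcl12 stood at 61.8 and 50.4 CPM, against 1575 and 1523 CPM in large vessels, and the adhesion molecule Icam2 at 144 and 259 CPM against 434 CPM or more in every blood sum. Vcam1, an adhesion molecule of activated vessels, had 0 UMIs in the 56 cells and stood at 552 and 685 CPM in large vessels. Spns2, the exporter of sphingosine 1-phosphate, stood at 144 and 151 CPM and was not called (edgeR adjusted p = 0.497).

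Antigen presentation genes were lower in lymphatic cells than in the mean of the blood classes once the 2-marker cells were left out. Of 18 tested, 0 were higher in either set, and 3 were lower with all members and 10 with the 56 cells. Among all genes 5.89% were higher and 2.69% lower with all members, and 9.54% and 9.49% with the 56 cells. The list summed to 3793 and 5415 CPM in the 56 cells and to 7114 and 5561 CPM in large vessels. In general capillary cells it summed to 15426 and 11353 CPM and in aerocytes to 10704 and 10618 CPM. Against large vessels alone, 0 of the 18 were higher and 0 lower with all members. H2-K1, an MHC class I heavy chain, stood at 778 and 915 CPM against 1094 to 2908 CPM over the blood sums, a log2 fold of -1.30 ± 0.14 (SE, edgeR adjusted p = 4.61e-06) without the 2-marker cells. Cd74, the MHC class II chaperone, was found in 6 of 56 cells, at 36.1 and 122 CPM. Cd274 (PD-L1), which lymphatic endothelium can use to restrain T cells, was found in 2 of them. Of 24 tested interferon response genes 4 were higher and 0 lower with all members, beside the same shares of all genes. With the 56 cells 2 were higher and 6 lower, with a median log2 fold of -0.33. Ifi27l2a of this list stood at 428 and 425 CPM against at most 139 CPM in a blood sum.

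S100a4, the gene the antibody is named for, was scarce here: 8 UMIs came from IgG cells and 3 from S100A4-11 cells, in 7 of the 86 cells, all with 3 or more markers. That is 41.2 and 21.6 CPM in the 56 cells, a fold of 0.524 (0.0895 to 2.18), with 3.20% of neutrophils also holding a UMI. An antibody to the protein need not change its transcript. Of the other S100 genes with the most UMIs, S100a6 stood at 1376 and 1123 CPM against 81.3 to 282 CPM over the blood sums, a log2 fold of 2.0 ± 0.17 (SE, edgeR adjusted p = 1.15e-05) and of 2.82 with the 56 cells. S100a10 and S100a11 stood at 1195 and 806 CPM and at 1175 and 1023 CPM. Ahnak, a large scaffold that binds S100a10, stood at 2200 and 2038 CPM against at most 1069 CPM. Over the list 5 of 15 tested genes were higher and 3 lower with all members, and 8 and 4 of 16 with the 56 cells. The shares of all genes were 5.89% and 2.69%, and 9.54% and 9.49%.

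Lipid, matrix and uptake genes gave further contrasts. Abca1, which exports cholesterol, stood at 350 and 389 CPM against at most 39.2 CPM in a blood sum, a log2 fold of 2.65 ± 0.21 (SE, edgeR adjusted p = 6.05e-06) and of 3.36 with the 56 cells. The fatty acid binding gene Fabp4 stood at 325 and 266 CPM. Cd36, the fatty acid importer of capillaries, stood at 82.4 and 130 CPM in the 56 cells and at 1505 and 1741 CPM in the 2-marker cells, against 489 to 2050 CPM over the blood sums. Of 25 tested matrix genes 12 were higher and 1 lower with all members, and 13 and 6 with the 56 cells. Beside these and the uptake genes below, the shares of all genes were 5.89% and 2.69%, and 9.54% and 9.49%. Lama4, a laminin chain, stood at 716 and 554 CPM against at most 143 CPM, a log2 fold of 3.34 ± 0.17 (SE, edgeR adjusted p = 1.43e-07) and of 4.17 with the 56 cells. Col4a1 stood at 397 and 302 CPM in the 56 cells, 1333 and 666 CPM in the 2-marker cells, and changed the sign of its fold between the sets. Of 12 tested uptake genes 6 were higher and 1 lower with all members, and 7 and 1 with the 56 cells. Fcgrt, the neonatal Fc receptor that recycles IgG, stood at 634 and 583 CPM against at most 74.6 CPM, and the mannose receptor Mrc1 at 242 and 266 CPM against at most 15.6 CPM.

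Genes of the immediate early and stress response, which tissue dissociation can induce, differed between the sets of members. With all members 2 of 24 tested were higher than in blood endothelium and 0 lower, near the 5.89% and 2.69% of all genes. With the 56 cells 1 was higher and 14 lower, with a median log2 fold of -0.68 against -0.04 over all genes. Jun stood at 268 and 331 CPM in the 56 cells, 2050 and 922 CPM in the 2-marker cells and 620 to 1694 CPM over the blood sums. Ier3 stood at 124 and 209 CPM in the 56 cells and 1460 and 785 CPM in the 2-marker cells.

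The 10 lowest genes of the fit with all members included genes of alveolar and myeloid cells. Sftpc and Sftpa1 are surfactant genes of type 2 alveolar cells, which also express Cldn18, S100g and Chil1, and C5ar1 and Wfdc17 are myeloid genes. Sftpc stood at 119 and 130 CPM in the 56 cells, against 15507 CPM in IgG large vessels and 89.4 CPM in S100A4-11 large vessels, and 40.8% of neutrophils held a UMI of it. Cldn18, S100g, Pi16, Robo2 and C5ar1 were at 0 in all 86 members. With the 56 cells 6 of these 10 were called, and with no library term Cldn18, S100g, Robo2, Sftpa1, Chil1 and Sftpc lost the call (edgeR adjusted p between 0.0517 and 0.162). The part of other cells' RNA in the blood sums was not tested.

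Levels of other cell types' markers in the 56 cells were limited in part by the rule, which caps Ptprc and Col1a1 and sets Itga2b and Gp9 to 0. Leukocyte markers summed to 469 and 641 CPM, against 1119 to 3706 CPM over the blood sums; 3 of 16 were at 0, and Fcer1g, at 247 and 418 CPM in 30 cells, held most of the sum (99.5% of neutrophils have a UMI of it). Of 15 dendritic cell and macrophage markers 11 were at 0, and Fscn1, an actin bundling gene, at 252 and 302 CPM in 30 cells, held most of their 268 and 302 CPM. Platelet markers summed to 15.5 and 64.8 CPM with 7 of 11 at 0 (2 of the 11 by the rule), pericyte and smooth muscle markers to 67.0 and 101 CPM with 8 of 14 at 0, and erythroid markers to 5.15 and 7.2 CPM. Fibroblast markers summed to 438 and 302 CPM and epithelial markers to 258 and 461 CPM, with 4 of 16 and 8 of 15 at 0. Mesothelial markers summed to 593 and 396 CPM with 7 of 11 at 0, of which Gpm6a held 423 and 360 CPM. Large vessel markers summed to 922 and 1051 CPM against 7192 and 7757 CPM in large vessels, most of it Prss23. Cycling genes were rare: 7 of 13 were at 0, with Mki67 among them.

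Against large vessels alone, the class closest by several of these genes, 367 genes (3.92%) were higher and 397 (4.24%) lower with all members. Fgl2 was higher by a log2 fold of 2.29 ± 0.17, Nrp2 by 2.63 ± 0.25 and Tshz2 by 1.37 ± 0.24 (SE, edgeR adjusted p = 8.78e-06, 4.54e-05 and 0.00325), and with the 56 cells by 3.15, 3.41 and 2.19. Prss23, a serine protease, was lower by a log2 fold of -1.01 ± 0.21 and Cxcl12 by -3.69 ± 0.22 (edgeR adjusted p = 0.0105 and 1.64e-06). Prss23 was not called with the 56 cells (edgeR adjusted p = 0.0775). Timp3, S100a11 and Fabp4, called higher against the mean of the blood classes, were not called against large vessels (edgeR adjusted p = 0.617, 0.972 and 0.951). Timp3 and S100a11 were called higher with the 56 cells (edgeR adjusted p = 0.00211 and 0.00618).

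The 56 cells varied among themselves in genes of valves and of scavenging. Nts, Cldn11 or Foxc2 was detected in 17 cells (11 IgG, 6 S100A4-11), of which 10 had 2 or more of these and 4 had all 3. The other 39 cells (20 IgG, 19 S100A4-11) were shallower, with a median of 3502 UMIs against 7551, so the split follows depth as well, and it was made after the values had been seen. It is a description with no test. Igfbp5, a binding protein of insulin-like growth factors, stood at 2276 CPM in the 17 cells and 124 CPM in the 39, and was detected in 12 and 8 of them. Pkhd1l1 stood at 380 and 96.9 CPM and the gap junction gene Gja4 at 374 and 156 CPM. Stab2 ran the other way at 20.4 CPM in the 17 cells and 517 CPM in the 39, in spite of the depth, and was detected in 3 and 25 of them. Reln stood at 740 and 1691 CPM. Lyve1 did not follow the split, at 1223 and 1184 CPM, nor did Sema3d, at 428 and 398 CPM, or Thy1, at 1420 and 1604 CPM. In both libraries Stab2 was lower in the 17 cells (11.6 against 556 CPM in IgG and 32.8 against 463 CPM in S100A4-11), and Igfbp5 higher (1857 against 83.4 CPM and 2866 against 180 CPM).

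**Figure D3:**
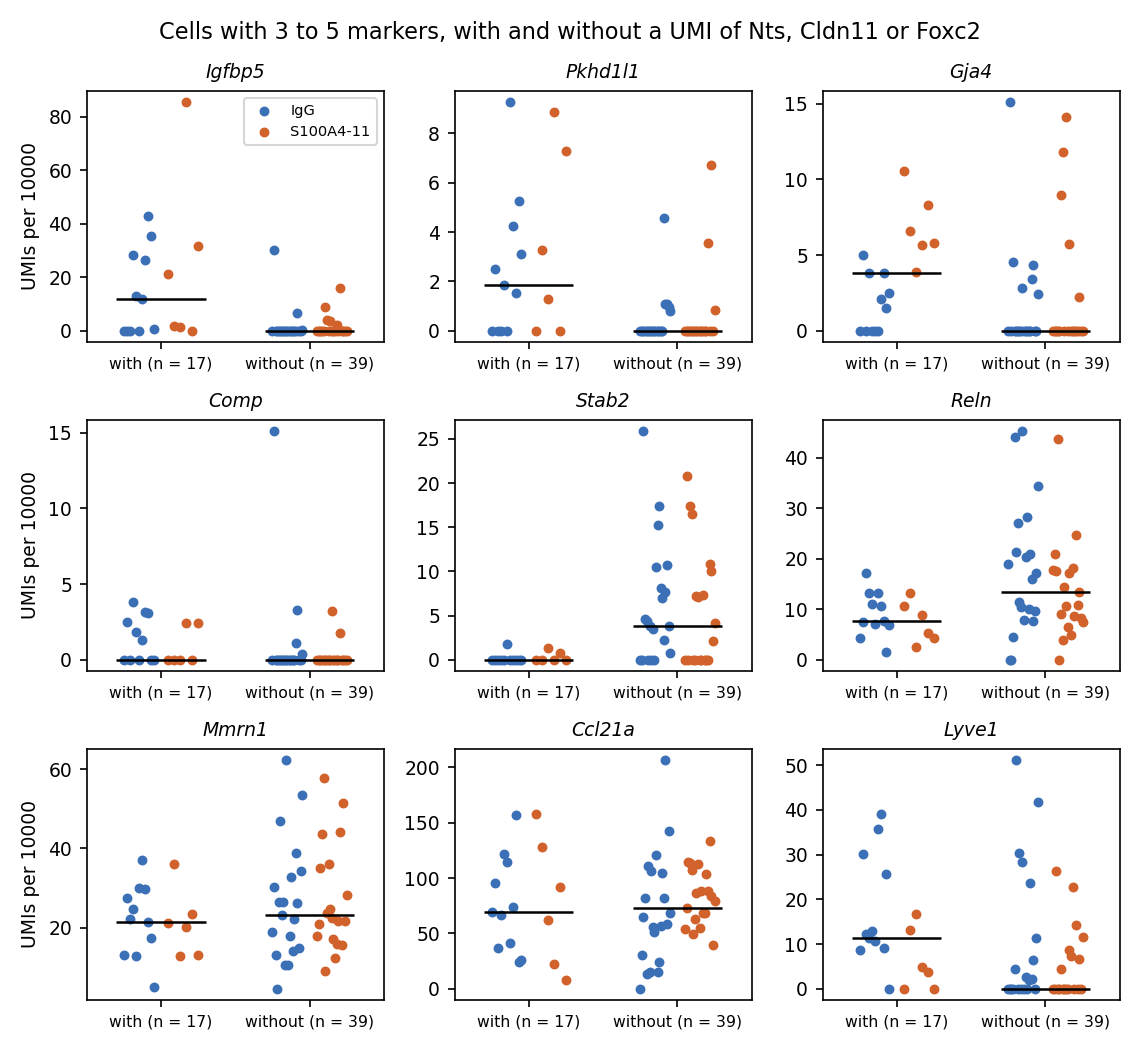
UMIs per 10000 of 9 genes in each of the 56 cells with 3 to 5 markers, split into 17 cells with and 39 without a UMI of Nts, Cldn11 or Foxc2 and coloured by library; the black line is the median of each set. Stab2 is at or near 0 in nearly all of the 17 cells, and Igfbp5 in most of the 39.

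Between the libraries, the immediate early genes Atf3, Egr1 and Fosb were among the 10 lowest genes in S100A4-11 members as chosen by the rule. They were not lower without the 2-marker cells. Among 5967 genes with at least 20 UMIs, 238 (3.99%) were past 2-fold higher in S100A4-11 and 496 (8.31%) past 2-fold lower. Atf3, a stress-induced factor, stood at 463 CPM in IgG and 35.5 CPM in S100A4-11 members, 13.1-fold lower (6.23 to 32.9). Egr1 stood at 637 and 76.0 CPM, 8.38-fold lower (5.0 to 15.2), and Fosb at 223 and 15.2 CPM. Of the IgG UMIs, 98.1% of Atf3, 95.6% of Egr1 and 96.1% of Fosb were in the 20 2-marker cells. In the 56 cells Atf3 had 4 UMIs in each library, Egr1 13 and 11 UMIs (fold 1.18, 0.480 to 2.86) and Fosb 4 and 3 UMIs. The chemokine gene Cxcl2, with 97.4% of its IgG UMIs in 2-marker cells, and Adgrl3, a cell adhesion receptor, with 96.3%, followed the same pattern; Adgrl3 stood at 108 CPM in both libraries of the 56 cells.

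The list of stress genes had a median log2 fold of -1.04 over 23 measured genes with all members, with 12 past 2-fold lower, against 0.01 over all genes. With the 56 cells it was 0.03 over 20 genes with 0 past 2-fold either way, against -0.28 in general capillary, -0.81 in aerocyte capillary and 0.23 in large vessel cells for the same genes. Interferon response genes went from -0.50 over 19 genes, 7 of them past 2-fold lower, to 0.18 over 12, with 1 past 2-fold lower. Among all genes 8.31% were past 2-fold lower with all members and 4.61% with the 56 cells. Nup210l, Kcnq5, Dach1, Plcb1 and Adamts9, also among the 10 lowest, had 87.8% to 98.6% of their IgG UMIs in 2-marker cells. Among the 10 highest, Gpx3, an extracellular glutathione peroxidase, stood at 54.1 and 309 CPM, with 3 and 13 UMIs in the 56 cells, each in 1 cell. Mecom, Nebl, Mfap4, Sod3, Gsn, Fibin and Vwf were also named. One S100A4-11 cell held 25 Mecom UMIs, and 15 of the 22 Vwf UMIs of S100A4-11 members were in 2-marker cells. Igfbp5 (fold 2.62, 2.11 to 3.24, and 1.56, 1.26 to 1.93, in the 56 cells) and the factor Osr1 (3.38, 2.02 to 5.74, and 1.97, 1.17 to 3.35) had nearly all of their UMIs in the 56 cells. In the S100A4-11 library, 1 cell held 56.1% of the Igfbp5 UMIs of these cells, and without it Igfbp5 stood at 656 CPM, below the 871 CPM of IgG. Without the highest cell of both libraries the Igfbp5 fold was 1.05. Of the 56 cells, Osr1 was detected in 17 of 31 IgG and 10 of 25 S100A4-11 cells, and its median level per cell was lower in S100A4-11. The S100A4-11 cell with 25 Mecom UMIs also held 12 Osr1 UMIs, against 26 in the rest of that library's part of the 56. Without the highest cell of both libraries the Osr1 fold was 1.69.

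**Figure D4:**
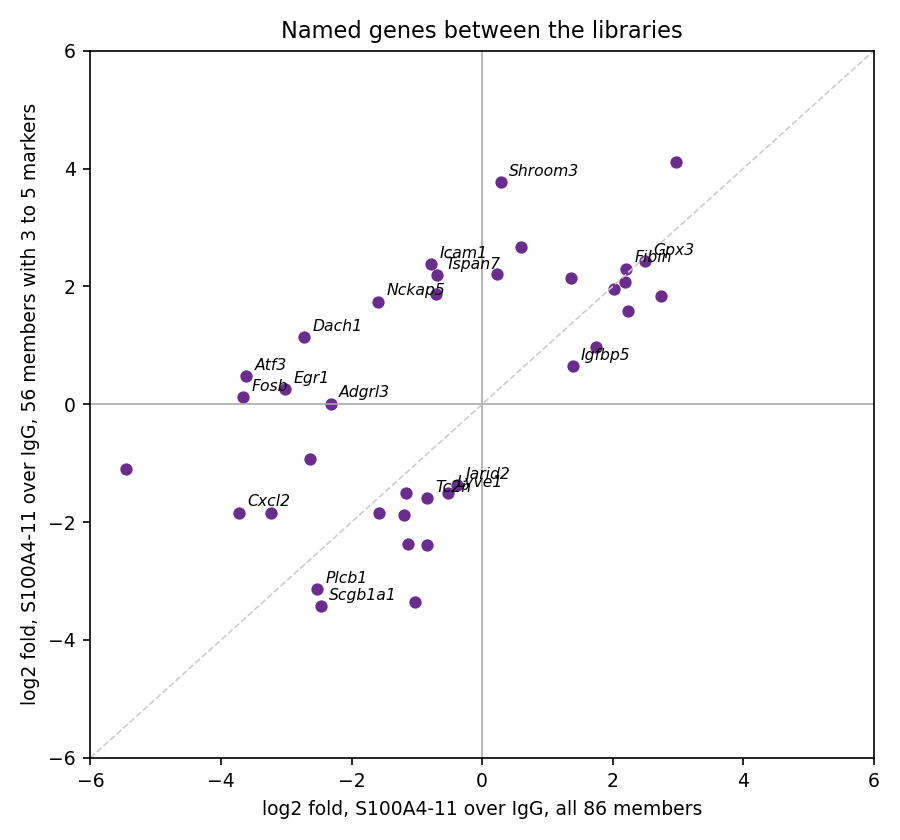
Log2 fold of S100A4-11 over IgG for the genes named between the libraries, over all 86 members on the x axis and over the 56 members with 3 to 5 markers on the y axis; the dashed line marks equal values. Atf3, Egr1, Fosb and Dach1 lie far left of 0 on the x axis and above 0 on the y axis.

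With the 56 cells alone, 113 of 3493 genes (3.24%) were past 2-fold higher and 161 (4.61%) past 2-fold lower in the S100A4-11 library. For the same 3493 genes, large vessels, a class of 71 and 67 cells, gave 103 and 147, and general capillary cells, with 1915 and 1647 cells, gave 8 and 34. The naming rule applied to the 56 cells shared 2 of 10 higher and 0 of 10 lower genes with all members. Lyve1 was the abundant gene among the lower ones, at 1649 CPM in IgG and 576 CPM in S100A4-11, 2.86-fold lower (2.23 to 3.70). It was detected in 21 of 31 and 12 of 25 cells. One IgG cell held 102 of its 320 IgG UMIs, and without the highest cell of each library Lyve1 was 2.47-fold lower. In large vessels its fold was 1.02 and in general capillary cells 1.04. Over all 86 members it was 0.697 (0.577 to 0.839).

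Other lower genes in the 56 cells rested on few UMIs. Tc2n stood at 356 and 115 CPM, 3.09-fold lower (1.77 to 5.70), in 20 of 31 and 8 of 25 cells, and Sgms1, a sphingomyelin synthase, at 335 and 115 CPM, 2.91-fold lower (1.66 to 5.38). Sgms1 had a fold of 0.645 in general capillary cells too. Lmcd1 stood at 129 and 21.6 CPM, the transcription cofactor Sub1 at 170 and 43.2 CPM and the endoplasmic reticulum cochaperone Dnajb9 at 108 and 7.2 CPM. Jarid2, a Polycomb cofactor, stood at 639 and 245 CPM, with 47 of the 124 IgG UMIs in a single cell, and was detected in 16 of 31 IgG and 19 of 25 S100A4-11 cells. Without the highest cell of each library it was 1.99-fold lower, and its median per cell was higher in S100A4-11 (2.24 against 1.32 UMIs per 10000). The complement gene C3 and the chemokine scavenger Ackr3 had 46.9% and 55.3% of their IgG UMIs in 1 cell each. Scgb1a1, the club cell secretory protein, stood at 113 and 7.2 CPM. It was found in 23.9% of neutrophils and at 2929 and 234 CPM in general capillary cells, which are not known to make it. The cause of its difference between the libraries was not tested.

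Among the 10 higher genes of the 56 cells, several came from single cells with genes of another type. In the S100A4-11 library 1 cell held 24 and another 11 of the 37 Tspan7 UMIs, and they held 17 and 12 of the 35 Pltp UMIs and 19 UMIs each of Hpgd. Tspan7 and Pltp stood at 859 CPM or more in every blood sum. A further S100A4-11 cell held 21 UMIs of Rtkn2, a type 1 alveolar marker, with 19 of 24 Shroom3, 15 of 20 Vegfa and 30 of 39 Nckap5 UMIs. All 3 had 38 or more Ccl21a UMIs and at least 10 of Mmrn1. Leaving out these and 1 IgG cell with the same genes, a choice made after seeing the data, 5 of the 10 higher and 10 of the 10 lower genes stayed past 2-fold, and the totals were 100 and 169 of 3082. Of these 5, Shroom3 was left with 2 and 3 UMIs and Pltp with 2 and 5, under the minimum of 20 UMIs. Gsn was left with 9 and 22 UMIs. In the 56 cells without the highest cell of each library its fold was 1.76. Icam1, an adhesion molecule for leukocytes, stayed at 44.2 and 219 CPM, on 8 and 24 UMIs, but 13 of the 24 were in 1 cell. In the 56 cells it was detected in 7 of 31 IgG and 9 of 25 S100A4-11 cells. Without the highest cell of each library its fold there was 4.36. Over all members Icam1 was lower in S100A4-11, with 52 UMIs against 210 in IgG, and 202 of these 210 were in 2-marker cells. Fibin, at 187 CPM in S100A4-11, had 25 of its 26 UMIs in 1 cell.

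Among antigen presentation genes of the 56 cells, no MHC class I gene was past 2-fold between the libraries. B2m stood at 526 and 936 CPM, a fold of 1.78 (1.36 to 2.33), and H2-D1 at 1226 and 1786 CPM, a fold of 1.46 (1.21 to 1.75). H2-K1 had a fold of 1.18 (0.921 to 1.5), whose interval includes 1. Over all members the folds of B2m and H2-D1 were 0.873 (0.741 to 1.03) and 0.885 (0.788 to 0.994). The antigen presentation list had a median log2 fold of 0.48 over 11 measured genes, 11 of them above 0, against -0.31 in general capillary cells and -0.23 in large vessels. With all members it was -0.26 over 15 genes. Over all genes the median was -0.0027 with the 56 cells and 0.01 with all members. Past 2-fold higher were 3.24% of all genes with the 56 cells. The 2 genes of this list past 2-fold higher had few UMIs: the immunoproteasome gene Psmb8 with 10 and 26 and Cd74 with 7 and 17. For the lists of lymphatic identity (median log2 fold 0.06 over 23 genes), transcription factors (0.13 over 14), valves (0.12 over 16), VEGF-C signalling (-0.07 over 13) and matrix (-0.24 over 18), at most 1 gene in each direction was past 2-fold. The summed blood capillary markers stood at 1680 CPM in the IgG and 3104 CPM in the S100A4-11 library, and their part in the B2m and H2-D1 folds was not tested.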

How the data were processed

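Lung cells were captured with the 10x 5' kit, per the labels' protocols, and the deposited values are UMI counts per gene and barcode, made by the authors with Cell Ranger 7.1.0 on mm10, per the submitters' processing notes. From these, barcodes with at least 200 genes and at most 15% mitochondrial UMIs were kept, and the cells were chosen by the rule of 5 genes. The members and lists were chosen with earlier results of these data known. Doublets were marked with Scrublet (scanpy 1.11.5) and kept, and their removal was an alternative.

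Counts were summed per class and library. The 8 summed profiles were fitted with edgeR 4.0.16 in R 4.3.3 by its quasi-likelihood test, on genes with a mean of at least 10 CPM, with Benjamini-Hochberg adjustment. The fit was also run on simulated counts with the same spread for every gene and class. That run does not cover genes whose UMIs lie mostly in single cells. DESeq2 1.42.0 was an alternative. Between libraries, genes with at least 20 UMIs over both were compared by CPM, with exact conditional binomial intervals, and genes past 2-fold were counted. Shares have exact Clopper-Pearson intervals. All intervals cover counting error only.

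Named genes were the rule genes, S100a4, the 20 highest and 10 lowest against blood endothelium, the 10 per direction between libraries whose interval bound lay farthest from 1, and up to 6 genes of each of 26 lists with the most UMIs. Other genes named were chosen after their values were seen. The leave-out of 4 cells with capillary or alveolar genes, that of each library's highest cell and the equal weighting of cells with 3 or more markers were also chosen after seeing the data. A gene that met the naming rule is not reported here.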

Additional observations from a re-analysis of the deposited data

How the results depend on the processing

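No paired analysis was possible because each treatment has 1 library and the labels give no replicate numbers. With 3 or more markers 895 genes were higher and 890 lower than in blood endothelium, 591 and 800 than in large vessels, and 113 and 161 were past 2-fold between libraries. With no filter on low counts 504 genes were lower than in blood endothelium. Between libraries, the higher and lower counts were 51 and 211 with at least 50 UMIs, 997 and 1100 with at least 5, 866 and 1085 at 1.5-fold, and 100 and 169 with 3 or more markers and without the 4 cells with capillary or alveolar genes. With every cell weighing the same, 452 were higher.

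The log2 fold against blood changed sign with 3 or more markers for Hspa8 (-0.23), Hspb1 (-0.55), Hspa1a (-0.69), Myh9 (-0.13), Scarb1 (-3.22), Sparc (-0.40), Col4a1 (-0.55) and Col4a2 (-1.01). It did so with no filter for Hspa8 (-0.054) and Myh9 (-0.019), with called doublets removed for Ptprb (0.0015), and with no Ptprc or Col1a1 UMI for Ptprb (0.038), Nr1d2 (0.092) and Scarb1 (-0.046). For Lgals9 it did so with DESeq2 size factors (0.0012) and DESeq2 (0.0045). Between libraries, with 3 or more markers, the log2 fold changed sign for Atf3 (0.48), Egr1 (0.25), Fosb (0.12), Dach1 (1.13), Adgrl3 (0.011), Nckap5 (1.74) and the median of the stress genes (0.033). With every such cell weighing the same it did so for Dach1 (1.58) and Nckap5 (1.98). Without the 4 cells it did so for Atf3 (0.73), Egr1 (0.059), Fosb (0.36), Dach1 (1.38) and Vwf (-1.60). For C3 it did so with every member weighing the same (0.59). The cause was not tested. Few UMIs per gene in 56 cells and 1 library per treatment limit all differences between libraries.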
